A study of Mus musculus with 157 samples.

Results

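De novo lipogenesis is the making of fatty acids from sugar carbon, and 10 genes of this pathway were listed by Ensembl gene ID as its enzymes and regulators. Of these 10, 9 were found among the 23176 genes of the deposited value table: Fasn (ENSMUSG00000025153_at), Acaca (ENSMUSG00000020532_at), Acly (ENSMUSG00000020917_at), Scd1 (ENSMUSG00000037071_at), Elovl6 (ENSMUSG00000041220_at), Srebf1 (ENSMUSG00000020538_at), Thrsp (ENSMUSG00000035686_at), Pnpla3 (ENSMUSG00000041653_at) and Mlxipl (ENSMUSG00000005373_at). Me1, malic enzyme, which supplies NADPH to the pathway, was not analysed here. The symbols come from the list itself, since the value table holds identifiers only. No filter on low values was applied, so all 9 genes found entered every test.

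The values come from livers of 157 male pre-Collaborative Cross mice, with 1 array and 1 mouse for each strain. These strains were still being inbred (generations F5 to F12) and mix the genomes of 8 founder strains: WSB/Ei, PWK/Ph, NZO/H1LtJ, NOD/LtJ, CAST/Ei, C57BL/6J, A/J and 129S1/SvImJ. All mice were fed a Purina chow, were moved to a second site at 9 to 11 weeks of age, went through a protocol with alcohol and exercise there, and were killed at 12 to 15 weeks; the labels do not give the intervention of a single mouse. Kill dates formed 10 cohorts, and cohorts 1 to 10 held 20, 21, 11, 5, 6, 10, 37, 22, 12 and 13 mice. Arrays were hybridized in 8 batches, and every batch held mice of at least 6 cohorts. Because each strain gave 1 mouse, strain, environment and array error are mixed in every spread and every p-value given here.

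Each deposited value is a rank score: the normal quantile of a mouse's rank for that gene among the 157 mice. For every gene the lowest possible score is -2.49 and the highest 2.49. A score of 0 marks the middle mouse, and 1 unit is about 1 SD over the mice. Scores order the mice within a gene. They hold no expression level and no fold change, so no member was compared with another in level. In whole liver, fewer cells of a type and less RNA per cell cannot be told apart. Markers of hepatocytes and of other liver cell types were not analysed here, because their identifiers could not be paired with symbols.

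In this pathway ATP citrate lyase (Acly) makes cytosolic acetyl-CoA from citrate, acetyl-CoA carboxylase (Acaca) turns it into malonyl-CoA, and fatty acid synthase (Fasn) builds palmitate from both. Elovl6 lengthens palmitate to stearate, and Scd1 puts the double bond into stearate and palmitate to give oleate and palmitoleate. In liver the pathway follows feeding: SREBP-1c, an isoform encoded by Srebf1, carries the insulin signal to these genes, and ChREBP, encoded by Mlxipl, carries the glucose signal. Thrsp (Spot 14) is a small lipogenic protein induced by thyroid hormone and carbohydrate feeding, and Pnpla3 is a lipid droplet protein and a target of SREBP-1c whose variant in people is tied to fatty liver.

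Windows around listed gene starts are shown for the regulators, for Fasn and Pnpla3, and for Acaca and Elovl6, whose windows hold none of the letters searched. RefSeq windows of GRCm38.p6 (250 bases before to 50 after a gene's start, read on the gene's strand) were found for 8 of the 9 members, 11 windows in all. Each was searched on both strands for TCACCC, the opening letters of the classical sterol regulatory element bound by SREBPs, for TCACNCCAC, a looser form of that element that can overlap TCACCC, for CCAAT, the box bound by NF-Y, and for CACGTG, a palindromic E-box. Capitals mark the matches. Of all 32851 windows in the table, 16.2% hold TCACCC, 1.24% hold TCACNCCAC, 37.4% hold CCAAT and 7.15% hold CACGTG. Members matched in 3, 1, 7 and 1 of the 11 windows, in the same order. The windows printed are chr11:120824498-120824797 for Fasn (minus strand), chr11:84195188-84195487 for Acaca (plus strand), chr3:129532136-129532435 for Elovl6 (plus strand), chr11:60210422-60210721 for the most downstream of 3 listed starts of Srebf1 (minus strand), chr7:97417501-97417800 for Thrsp (minus strand), chr15:84167566-84167865 for Pnpla3 (plus strand) and, for the 2 listed starts of Mlxipl (plus strand), chr5:135106641-135106940 and chr5:135089640-135089939, in that order.
Fasn: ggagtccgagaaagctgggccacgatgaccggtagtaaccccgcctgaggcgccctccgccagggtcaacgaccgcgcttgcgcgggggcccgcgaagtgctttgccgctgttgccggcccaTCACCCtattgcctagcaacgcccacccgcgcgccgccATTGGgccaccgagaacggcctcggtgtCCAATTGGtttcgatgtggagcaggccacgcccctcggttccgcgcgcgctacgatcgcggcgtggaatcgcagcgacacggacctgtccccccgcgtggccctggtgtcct
Acaca: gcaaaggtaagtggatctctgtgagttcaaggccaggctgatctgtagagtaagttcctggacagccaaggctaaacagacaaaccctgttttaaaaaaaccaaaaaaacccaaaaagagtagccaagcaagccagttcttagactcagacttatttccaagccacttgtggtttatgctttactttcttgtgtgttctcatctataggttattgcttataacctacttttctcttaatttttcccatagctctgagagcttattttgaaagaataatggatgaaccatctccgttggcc
Elovl6: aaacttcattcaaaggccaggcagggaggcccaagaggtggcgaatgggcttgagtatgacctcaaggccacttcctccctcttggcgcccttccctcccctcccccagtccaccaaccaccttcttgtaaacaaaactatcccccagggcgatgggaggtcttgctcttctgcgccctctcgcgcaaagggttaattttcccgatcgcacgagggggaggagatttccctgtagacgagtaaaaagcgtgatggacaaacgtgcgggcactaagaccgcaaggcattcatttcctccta
Srebf1: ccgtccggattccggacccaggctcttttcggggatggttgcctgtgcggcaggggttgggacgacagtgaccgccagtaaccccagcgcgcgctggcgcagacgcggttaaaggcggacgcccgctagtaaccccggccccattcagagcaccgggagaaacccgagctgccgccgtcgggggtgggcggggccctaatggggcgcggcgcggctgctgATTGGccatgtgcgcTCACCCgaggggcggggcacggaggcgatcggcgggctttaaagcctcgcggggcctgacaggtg
Thrsp: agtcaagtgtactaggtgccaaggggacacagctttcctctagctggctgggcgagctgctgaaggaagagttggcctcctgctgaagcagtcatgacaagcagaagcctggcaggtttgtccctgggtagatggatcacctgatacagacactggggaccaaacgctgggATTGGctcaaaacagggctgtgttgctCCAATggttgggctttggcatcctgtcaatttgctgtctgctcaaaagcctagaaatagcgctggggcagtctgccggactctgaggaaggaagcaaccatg
Pnpla3: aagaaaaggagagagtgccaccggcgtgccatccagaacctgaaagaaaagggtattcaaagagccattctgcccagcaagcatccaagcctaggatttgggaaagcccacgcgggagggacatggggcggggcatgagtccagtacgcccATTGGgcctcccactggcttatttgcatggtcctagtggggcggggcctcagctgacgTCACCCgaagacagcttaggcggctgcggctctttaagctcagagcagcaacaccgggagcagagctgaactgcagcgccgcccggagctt
Mlxipl, downstream start: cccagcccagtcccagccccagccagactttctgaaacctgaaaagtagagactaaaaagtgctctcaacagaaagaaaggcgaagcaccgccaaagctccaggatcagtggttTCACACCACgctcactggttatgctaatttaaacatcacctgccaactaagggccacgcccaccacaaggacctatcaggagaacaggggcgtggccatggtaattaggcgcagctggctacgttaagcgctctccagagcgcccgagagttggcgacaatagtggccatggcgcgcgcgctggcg
Mlxipl, upstream start: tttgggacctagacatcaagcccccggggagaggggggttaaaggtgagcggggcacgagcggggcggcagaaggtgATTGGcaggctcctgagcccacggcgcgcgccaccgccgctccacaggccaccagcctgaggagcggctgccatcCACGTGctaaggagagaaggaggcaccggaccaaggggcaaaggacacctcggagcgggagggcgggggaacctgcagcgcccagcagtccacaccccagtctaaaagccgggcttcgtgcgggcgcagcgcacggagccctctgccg
The Fasn window holds TCACCC 128 bases before the start and CCAAT at 90, 62 and 59 bases before it; the CCAAT matches at 62 and 59 overlap on opposite strands. In the printed Srebf1 window CCAAT lies 30 and TCACCC 15 bases before the start. Of the Srebf1 windows not printed, that of the most upstream start holds only CCAAT, 166 bases before it. The window of the middle start holds none of the letters searched. The Thrsp window holds CCAAT at 79 and 52 bases before the start and no TCACCC. Pnpla3 has CCAAT at 99 and TCACCC at 41 bases before its start, and the downstream start of Mlxipl has TCACNCCAC at 136, while the upstream start has CCAAT at 173 and CACGTG at 98. The Acly window, not printed, holds CCAAT 38 bases after the start and no TCACCC. A match describes letters only and is no binding site. A window without a match, as for Acaca and Elovl6, covers only the bases around a listed start. It does not show that the gene lacks these letters at another start. Which start is used in liver was not tested.

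**Figure D1:**
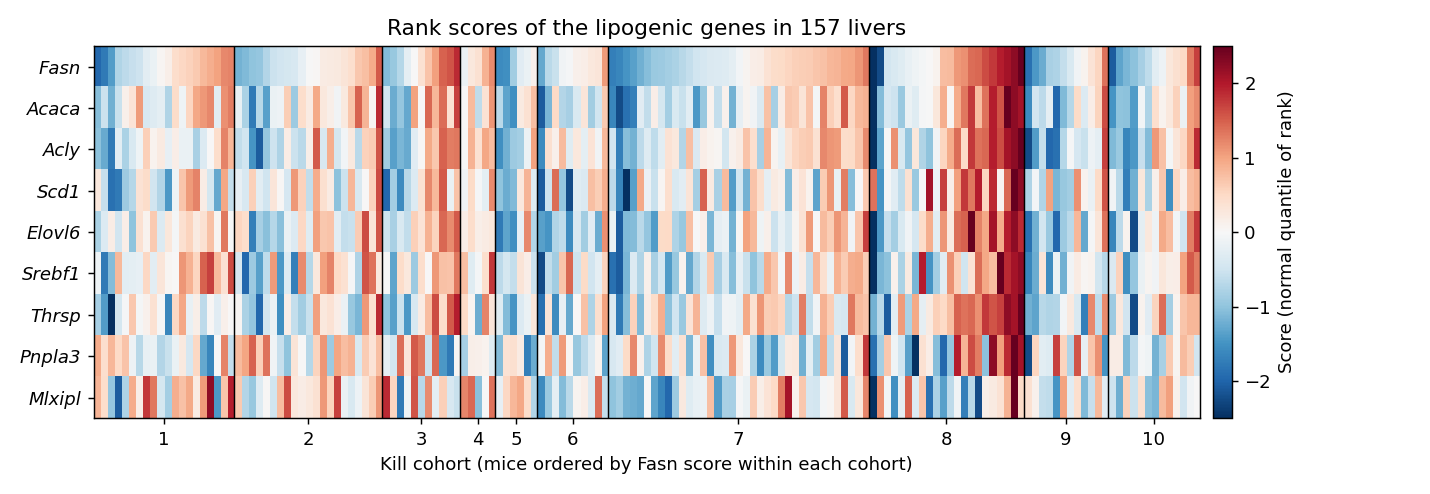
Rank scores of the 9 members (rows) in each of the 157 livers (columns), grouped by kill cohort 1 to 10 and ordered within a cohort by the Fasn score. Red is a high and blue a low score in score units from -2.49 to 2.49. Acaca, Acly, Elovl6, Srebf1 and Thrsp follow the left to right order of Fasn in most cohorts, Pnpla3 and Mlxipl do so less visibly, and the darkest red block is at the right of cohort 8.

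The lipogenic enzymes ranked the mice in much the same order. All 10 pairs among Fasn, Acaca, Acly, Scd1 and Elovl6 were positively related, with Pearson's r of 0.494 to 0.829 (median 0.742) over the 157 mice. Of the 36 pairs among the 9 members, 35 had r above 0 and 17 had r of at least 0.5, with a median of 0.493. Over all genes set against the members the median r was -0.0124, the median size of r was 0.0838, and 0.188% of such pairs reached 0.5 in size. Every gene was also fitted on the score of a member with batch and cohort as covariates (least squares, Benjamini-Hochberg over 23175 genes, called at adjusted p under 0.05), and each pair was read with the member named first in the list as the regressor. In this fit 23 of the 36 pairs were called positive and 0 negative. The background differs by regressor: the percentage of all genes called positive was 4.16% for Fasn, 5.73% for Acaca, 4.65% for Acly, 1.54% for Scd1, 3.2% for Elovl6, 3.6% for Srebf1, 4% for Thrsp, 19.9% for Pnpla3 and 0.82% for Mlxipl. The percentage called negative was 2.71%, 3.72%, 4.7%, 0.811%, 1.76%, 3.06%, 3.22%, 10.6% and 0.242% in that order. With the regressor taken as the other member of each pair, 24 pairs were called, the same 23 and Srebf1 with Pnpla3. In two-sided permutation tests of the plain r, 21 pairs gave 1e-05, the smallest p that 100000 permutations can give.

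Fasn and Acaca, which carry out successive steps, were the closest pair. Their r was 0.829 and Spearman's rho 0.813 (permutation p = 1e-05 for each), and the slope of Acaca on Fasn was 0.821 ± 0.0459 score units per unit (SE, least squares, adjusted p = 1.72e-33, n = 157). Among 23175 genes, Acaca was the one closest to Fasn, and Fasn the one closest to Acaca. Both genes stood on the same side of 0 in 125 of the 157 mice. The relation was present within each of the 8 batches (r 0.762 to 0.891) and within each of the 8 cohorts with 10 or more mice (r 0.666 to 0.950). Without the 2 mice farthest from the median for Fasn, r was 0.816.

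Acly, at the entry of the pathway, was nearly as close to Fasn, with r of 0.826, rho of 0.795 and an adjusted p of 1.49e-32 by least squares. Its r within batches ranged more widely, from 0.460 to 0.899. Elovl6, which works on the product of Fasn, had r of 0.781 with Acaca, 0.755 with Fasn and 0.730 with Acly. Ordered by r with Fasn over all genes, Acaca was in place 1, Acly 2, Elovl6 3, Srebf1 5, Thrsp 6 and Scd1 39, while Mlxipl was in place 797 and Pnpla3 in place 2861.

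Scd1 was the loosest of the enzymes. Its r with the other 4 was 0.604 with Acaca, 0.564 with Elovl6, 0.521 with Fasn and 0.494 with Acly, and all 4 pairs were called. For Scd1 with Acly, r was positive in 7 of the 8 batches, and it was -0.103 in the remaining batch; the other 9 enzyme pairs were positive in every batch. In 1 mouse the separation was wide. The mouse with the lowest possible score for Fasn, Acaca, Acly and Elovl6 (strain OR5232, cohort 8) had a score of 1.35 for Scd1. The SD of its array over all genes was 1.19, against a median of 0.943 over arrays.

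Of the members with a promoter entry, Fasn, Acaca, Acly and Srebf1 lie on chromosome 11, and the 6 pairs among them had r of 0.583 to 0.829. Elovl6 lies on chromosome 3. Its r of 0.730 to 0.781 with the 3 chromosome 11 enzymes fell within that range, and its r of 0.492 with Srebf1 fell below it. Scd1 lies on chromosome 19, and its r was 0.604 with Acaca, 0.521 with Fasn, 0.494 with Acly and 0.260 with Srebf1. A link between chromosome and r was not tested.

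**Figure D2:**
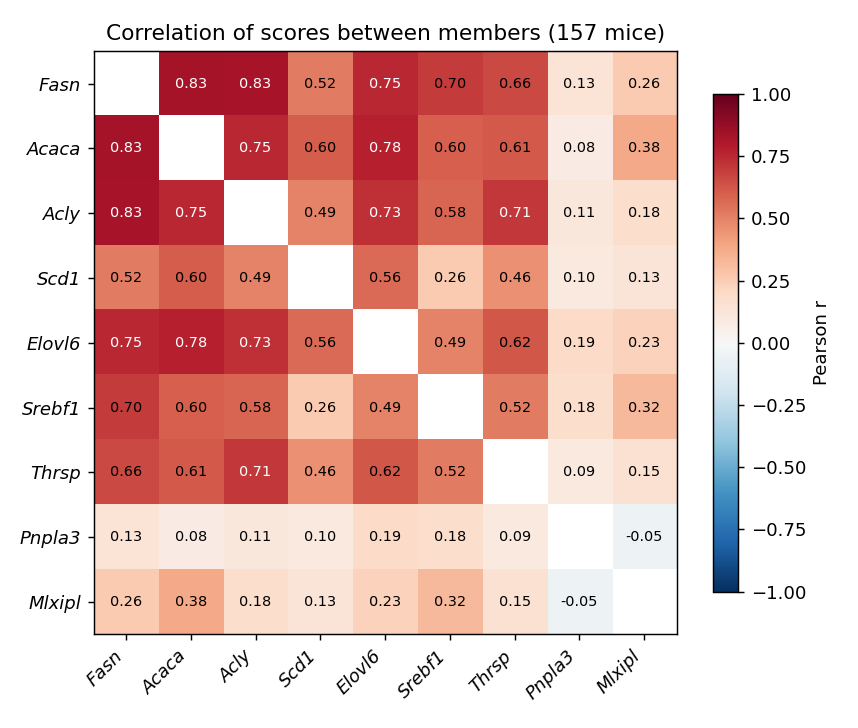
Pearson's r between the scores of each pair of members over 157 mice, from blue (-1) through white (0) to red (1), with r written in each cell. The enzymes with Srebf1 and Thrsp form a red block with r of 0.260 to 0.829, and Pnpla3 has pale cells from -0.0532 to 0.191.

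Among the regulators, Srebf1 and Thrsp followed the enzymes most closely; differences between correlations were not tested. Srebf1 was positively related to 4 of the 5 enzymes in the test: r was 0.696 with Fasn (adjusted p = 5.04e-18), 0.599 with Acaca, 0.583 with Acly and 0.492 with Elovl6. With Scd1, r was 0.260 and the slope was not called (least squares, adjusted p = 0.0950), though it was with no covariates (slope 0.260, adjusted p = 0.0326). In cohorts 1 to 6 alone the slope of Srebf1 on Elovl6 was 0.492 and not called (least squares, adjusted p = 0.134). Thrsp was related to all 5 enzymes, with r of 0.710 for Acly, 0.663 for Fasn, 0.621 for Elovl6, 0.614 for Acaca and 0.458 for Scd1, and each of these was positive in every batch. In cohorts 7 to 10 alone the slope of Thrsp on Scd1 was 0.377 and not called (least squares, adjusted p = 0.119). Acly was the gene closest to Thrsp among all 23175. Srebf1 and Thrsp had r of 0.519 with each other (adjusted p = 3.96e-08).

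Mlxipl had a lower r than Srebf1 or Thrsp with each of the 5 enzymes. It was called with Acaca (r 0.381, adjusted p = 7.51e-05), with Srebf1 (r 0.321, adjusted p = 0.00503) and with Fasn (r 0.262, adjusted p = 0.00598), all by least squares. The fit did not call Mlxipl with Elovl6 (r 0.232, adjusted p = 0.0559), Acly (r 0.177, adjusted p = 0.0719), Thrsp (r 0.149, adjusted p = 0.156) or Scd1 (r 0.128, adjusted p = 0.344). Within batches its r with Acaca was 0.0785 to 0.779, positive in all 8. In cohorts 1 to 6 alone (73 mice) the slope between Srebf1 and Mlxipl was 0.147 (least squares adjusted p = 0.794) and that between Fasn and Mlxipl 0.225 (adjusted p = 0.627), neither called. Without cohort 8, the slope between Srebf1 and Mlxipl was 0.251 (adjusted p = 0.165).

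Fitting Srebf1 and Mlxipl together asks which members kept a slope on each regulator with the other held. The regulator scores are of RNA, 1 value per gene, so isoforms were not separated and protein activity was not measured. With Mlxipl held, 5 of the 7 remaining members had a positive slope on Srebf1 (least squares, adjusted p under 0.05; 3.1% of all genes were called positive). The slope was 0.654 ± 0.0630 for Fasn (adjusted p = 5.67e-15), 0.554 ± 0.0699 for Acly, 0.499 ± 0.0739 for Thrsp, 0.494 ± 0.0673 for Acaca and 0.397 ± 0.0750 for Elovl6 (SE, n = 157; adjusted p at most 8.69e-05). Srebf1 added 34.5% of the variance of Fasn and 12.7% of that of Elovl6. Pnpla3 (0.235 ± 0.0843, adjusted p = 0.0740) and Scd1 (0.204 ± 0.0839, adjusted p = 0.143) were not called. Pnpla3 was called in cohorts 7 to 10 alone (slope 0.488, adjusted p = 0.00956) and had a slope of -0.0821 in cohorts 1 to 6 alone (adjusted p = 0.895), while Scd1 was called with no covariates (slope 0.244, adjusted p = 0.0448). In cohorts 1 to 6 alone Acly (0.460, adjusted p = 0.0509), Acaca (0.407, adjusted p = 0.0799) and Elovl6 (0.334, adjusted p = 0.199) were not called. Without cohort 8, Elovl6 was not called (0.282, adjusted p = 0.0522).

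With Srebf1 held, 0 of the 7 members were called on Mlxipl by least squares, where 0.475% of all genes were called positive. Acaca had the largest slope, 0.240 ± 0.0678, with an unadjusted p of 0.000539 and an adjusted p of 0.0548; it was the 1 member of the 7 under an unadjusted p of 0.05, where 16.3% of all genes were. For Acaca the side of the threshold depended on cohort 8: without its 22 mice the slope was 0.310 (adjusted p = 0.0304). A difference between the slopes on the regulators was not tested.

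**Figure D3:**
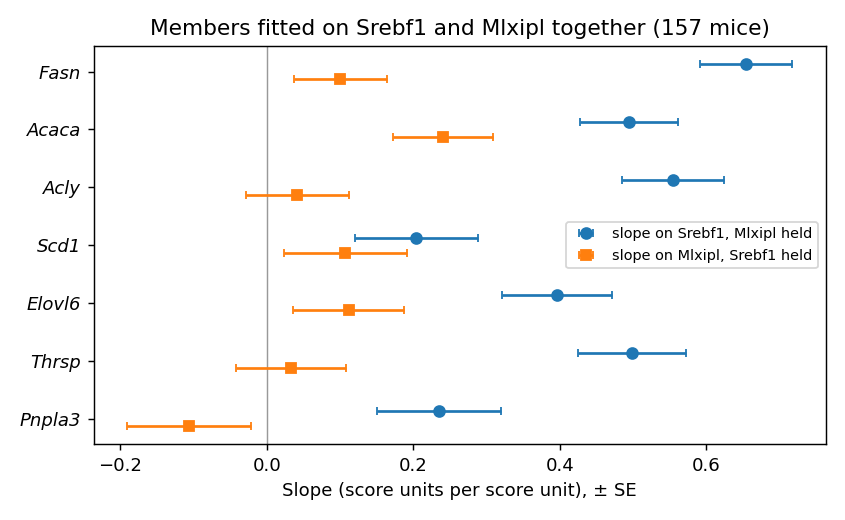
Slopes of 7 members on Srebf1 with Mlxipl held (blue circles) and on Mlxipl with Srebf1 held (orange squares), in score units per score unit, with bars of 1 SE, from least squares over 157 mice with batch and cohort as covariates. Blue circles run from 0.204 for Scd1 to 0.654 for Fasn, and orange squares from -0.106 for Pnpla3 to 0.240 for Acaca.

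Pnpla3 stood apart from the other members over the whole set of mice. Its r with them ran from -0.0532 for Mlxipl to 0.191 for Elovl6, and 0 of its 8 pairs were called when read in the order of the list. With Pnpla3 as the regressor, Srebf1 was called (slope 0.216 ± 0.0858, adjusted p = 0.0444 by least squares), in a fit that called 19.9% of all genes positive. In all, 5844 genes outside the list were closer to Pnpla3 than its closest member. Pnpla3 was also the member most related to the main axis of variation of all genes: its r with the first principal component over all genes was 0.541, against -0.243 to 0.0239 for the other 8. Between hybridization batches 0 of the 9 members were called (limma F test, where 12.2% of all genes were called), and Pnpla3 was the 1 member under an unadjusted p of 0.05 (0.0107, adjusted p = 0.0669), where 32.6% of all genes were. Batches held 11.2% of the variance of Pnpla3 and a median of 6.68% over all genes.

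Values of Pnpla3 in cohort 8 are given apart, with no test of cohort 8 against the rest. Among its 22 mice, r of Pnpla3 with the 7 members other than Mlxipl was 0.524 to 0.730, for example 0.664 with Fasn, 0.705 with Acaca and 0.617 with Srebf1. Among the other 135 mice the same 7 values lay between -0.178 and -0.0185. The sign of the pooled r thus changed for these 7 pairs when cohort 8, singled out after the values were seen, was left out. A split into later and earlier cohorts gave r with Fasn of 0.332 in cohorts 7 to 10 (84 mice) and -0.240 in cohorts 1 to 6 (73 mice). Cohort 8 gave 22 of the 84 later mice, so this split is not independent of the values above. The later cohorts held mostly strain numbers in the 3000s and 5000s, and the earlier cohorts mostly other numbers. The slope of Pnpla3 on Fasn differed by 0.620 ± 0.166 between cohorts 7 to 10 and cohorts 1 to 6, with an unadjusted p of 0.000266. Adjusted over all genes by least squares that p was 0.641. Across the 36 pairs, 0 such differences were called, with adjusted p of 0.583 to 1.00, and 0% of all genes were called with any regressor tested. At an unadjusted p under 0.05 there were 6 pairs, 5 of them with Pnpla3, where the share of all genes was 5.13% to 6.27% by regressor. These 5 pairs share Pnpla3, and their other members are related to each other, so they are not 5 independent results. Of all the genes, 5.69% had such a p on Fasn, the regressor of the pair described above.

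**Figure D4:**
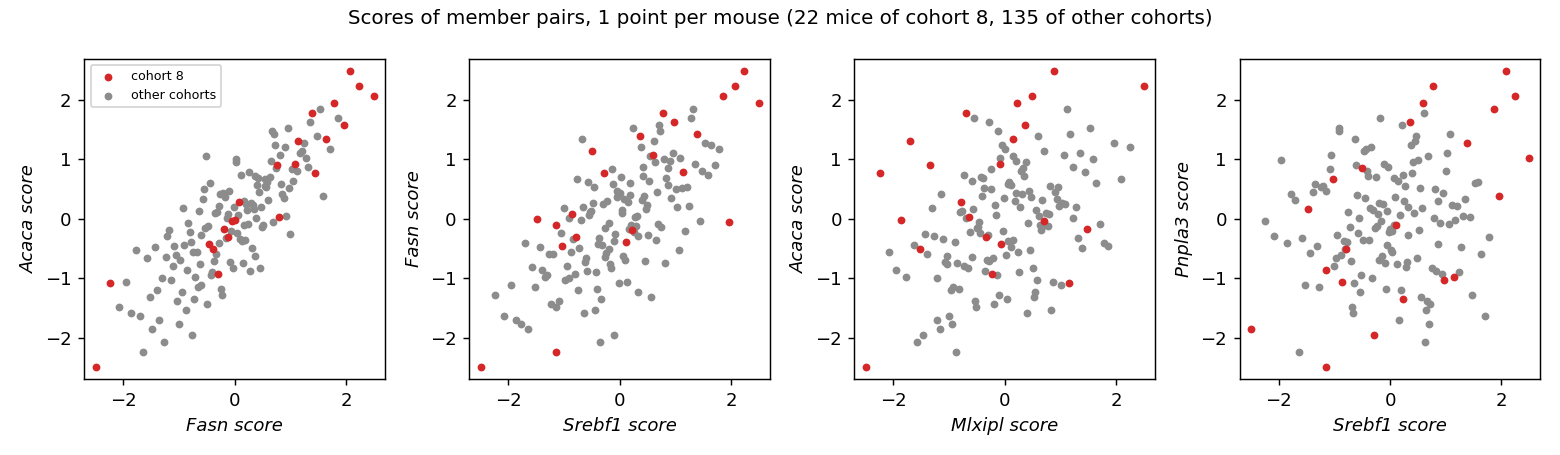
Scores of 4 pairs of members, with 1 point per mouse in score units; red points are the 22 mice of cohort 8 and grey points the 135 mice of the other cohorts. Acaca against Fasn forms a narrow band (r 0.829), Fasn against Srebf1 a wider one (r 0.696), Acaca against Mlxipl a loose cloud (r 0.381), and Pnpla3 rises with Srebf1 in the red points (r 0.617) but not in the grey ones (r -0.0185).

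In a principal component analysis of the 9 members, the first component held 54.7% of their variance and had positive loadings for all 9, from 0.0821 for Pnpla3 to 0.416 for Fasn. The second held 12.0% and set Mlxipl (loading 0.666) against Pnpla3 (loading -0.710). The mean r with the other 8 members was 0.586 for Fasn, 0.581 for Acaca, 0.548 for Acly, 0.546 for Elovl6, 0.479 for Thrsp, 0.456 for Srebf1, 0.391 for Scd1, 0.200 for Mlxipl and 0.105 for Pnpla3.

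Single mice show how far the members moved together. In 11 mice all 9 members scored above 0, and in 5 mice none did. All 5 enzymes were above 0 in 36 mice, of which 12 were in cohort 8, and none of the enzymes was above 0 in 31 mice, of which 2 were in cohort 8. The mean score over the 9 members had an SD of 0.687 over mice and ran from -1.85 to 2.29.

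The highest mean, 2.29, belonged to a mouse of strain OR5612 (cohort 8), which scored 2.24 for Fasn, Acaca, Acly and Elovl6, 2.08 for Srebf1 and Thrsp, and the highest possible 2.49 for Scd1, Pnpla3 and Mlxipl. Next came strain OR3046 (mean 2.05, cohort 8), with the highest score for Fasn, Acly and Thrsp. Of the 7 mice with the highest means, 6 belonged to cohort 8 and all 6 were killed on the earlier of its 2 kill days. The other was of strain OR692 in cohort 2 (mean 1.35). Place 8 was held by strain OR3061 in cohort 7 (mean 1.11). Strain OR3549, killed on the later day of cohort 8, had a mean of 1.08. The lowest mean, -1.85, was that of strain OR5232, also of cohort 8, which ranked last for 6 members: Fasn, Acaca, Acly, Elovl6, Srebf1 and Mlxipl. Strains OR3076 (cohort 7, mean -1.59) and OR381 (cohort 6, mean -1.56) followed, and in both all 9 members were below 0. Strain OR5067, killed on the earlier day of cohort 8, was in place 150 of 157 (mean -1.01). Cohort 8 thus held both ends of the range. The array of strain OR5232 also spread widely over all genes, with an SD of 1.19 against a median of 0.943 over arrays. For strain OR5612 that SD was 0.951.

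Whether the cohorts differed was tested for each member. No member was called between the 10 cohorts (0 of 9, limma F test with batch as a covariate, adjusted p 0.169 to 0.713), where 2.45% of all genes were called. At an unadjusted p under 0.05 there were 5, where 16.8% of all genes were: Elovl6 (0.0139), Acly (0.0154), Scd1 (0.0163), Thrsp (0.0180) and Fasn (0.0402). Without cohort 8 there were 0, where 15.2% of all genes were, and the F statistic was 0.595 against 2.25 over all cohorts for Scd1, 0.769 against 2.22 for Thrsp, 1.09 against 1.95 for Fasn and 1.59 against 2.27 for Acly; for Elovl6 the unadjusted p was 0.153. Cohort accounted for 5.32% of the variance of Pnpla3 and 12.7% of that of Elovl6, with a median of 10.8% over the members, against a median of 6.55% over all genes.

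Fasn had mean scores of -0.0252 ± 0.952, -0.0836 ± 0.724, 0.372 ± 1.05, 0.508 ± 0.521, -0.723 ± 0.720, -0.0679 ± 0.637, -0.105 ± 0.845, 0.574 ± 1.33, -0.404 ± 0.908 and -0.248 ± 1.07 in cohorts 1 to 10 (SD). Cohort 8 had its highest mean and widest spread, and cohort 5, with 6 mice, its lowest mean. For 5 of the 9 members the highest mean lay in cohort 8: Fasn, Acaca (0.533 ± 1.26), Scd1 (0.765 ± 1.13), Elovl6 (0.584 ± 1.29) and Thrsp (0.733 ± 1.19). It also had the largest SD for 7 of the 9, Scd1 and Thrsp being the others. Acly (0.596 ± 0.411), Srebf1 (0.517 ± 0.814) and Mlxipl (0.589 ± 1.09) were highest in cohort 4, which had 5 mice, and Pnpla3 (0.375 ± 0.737) in cohort 2. Lowest means lay in cohort 5 for Scd1 (-0.427 ± 0.847), Thrsp (-0.516 ± 0.646) and Pnpla3 (-0.509 ± 0.937). They lay in cohort 6 for Acaca (-0.507 ± 0.827), Elovl6 (-0.745 ± 0.800) and Mlxipl (-0.383 ± 0.818), and in cohort 9 for Acly (-0.699 ± 1.07) and Srebf1 (-0.535 ± 0.715). In every case the ranges of the highest and lowest cohort overlapped.

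**Figure D5:**
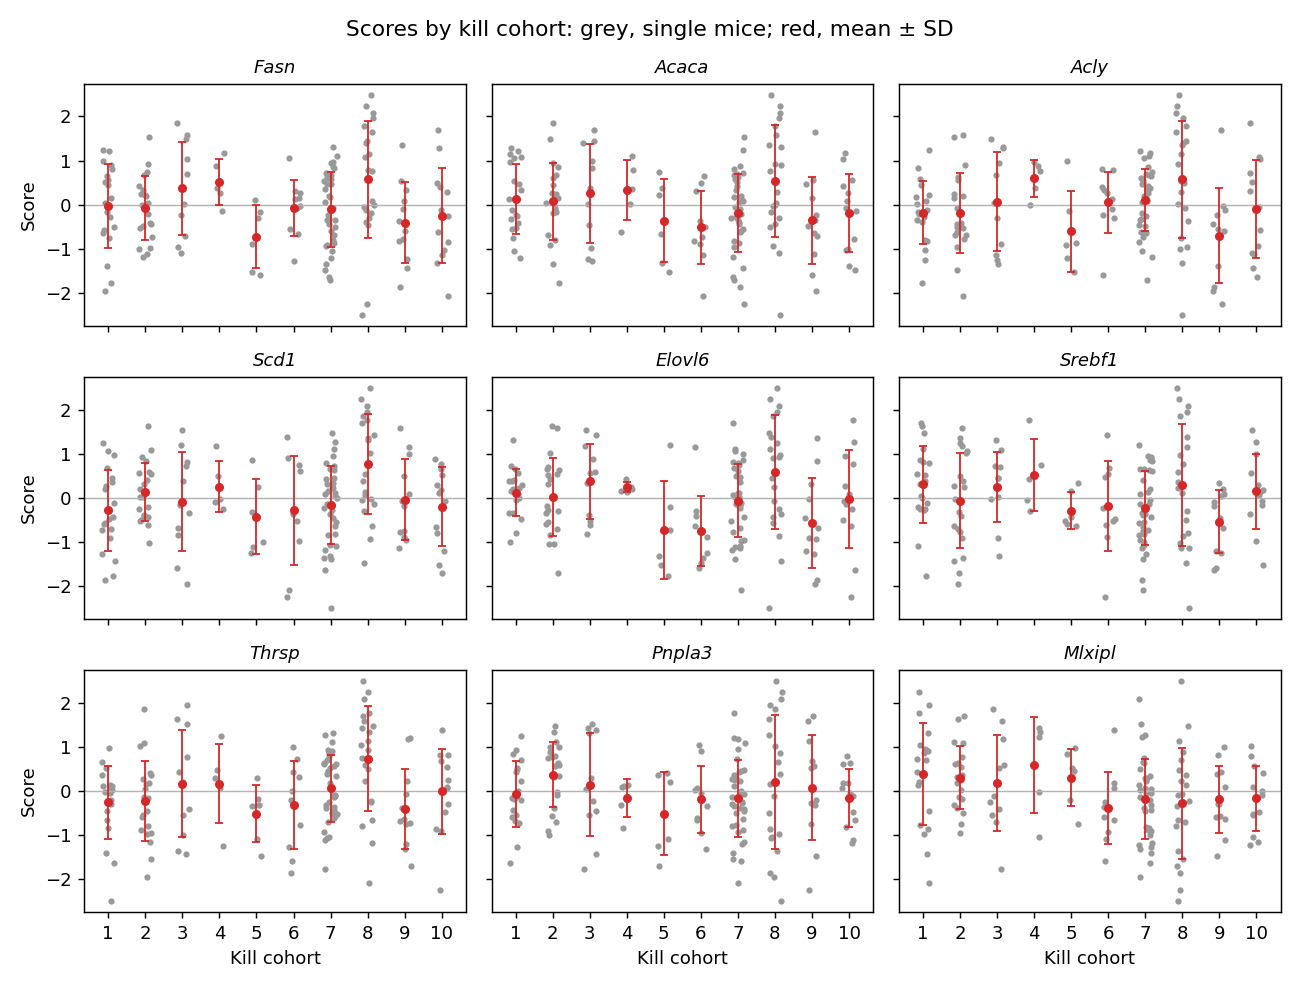
Scores of each member by kill cohort 1 to 10; grey points are single mice, red points the cohort means and red bars 1 SD, in score units. Cohort 8 reaches both the highest and the lowest scores for most members, and the cohorts overlap for every member.

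Among the 4 pairs of cohorts compared, 1 member passed the test in 1 pair. Thrsp was higher in cohort 8 than in cohort 2: the lowest, median and highest scores were -2.08, 0.997 and 2.49 in the 22 mice of cohort 8, against -1.95, -0.159 and 1.86 in the 21 mice of cohort 2. The groups overlapped widely. Means were 0.733 ± 1.19 in cohort 8 and -0.226 ± 0.913 in cohort 2, and the difference with batch as a covariate was 1.01 ± 0.297 (SE, limma, adjusted p = 0.0469; 1.5% of all genes were called, and 0.828% were called higher in cohort 8). The SE rests on a spread shared by all mice, while cohort 8 spread more widely, so this adjusted p may be too small. Strain numbers in the 3000s or 5000s were carried by 21 of the 22 mice of cohort 8 and by 0 of the 21 mice of cohort 2, so the cohorts also differ in strain block. With the strain-number block as an added covariate the difference was 0.752 ± 0.440 and not called (limma adjusted p = 0.770). Fasn, Acly and Scd1 also had an unadjusted p under 0.05 in the same pair, as did 13.2% of all genes, and adjusted p of 0.302, 0.180 and 0.298.

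Cohort 9 against cohort 8 gave the largest differences, none of them called. For 7 of the 9 members the unadjusted p was under 0.05, as it was for 8.54% of all genes; limma called 0 members and 0.00431% of all genes. Acly averaged -0.699 ± 1.07 in cohort 9 (12 mice) and 0.580 ± 1.33 in cohort 8 (22 mice), a difference of -1.22 ± 0.348 (unadjusted p 0.000449, limma adjusted p = 0.289). Differences of the other 6 ran from -1.10 for Thrsp to -0.738 for Scd1, while Pnpla3 (-0.0687) and Mlxipl (0.114) had differences near 0. Cohort 8 is shared with the preceding pair, so these values and those of that pair are not independent. The spread shared by all mice was used here too, and cohort 8 had the largest SD for 7 of the 9 members.

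Cohort 7 against cohort 1 gave 0 called members, where 3.49% of all genes were called. Mlxipl averaged -0.174 ± 0.912 in cohort 7 and 0.382 ± 1.15 in cohort 1 (difference -0.631 ± 0.271, limma adjusted p = 0.162), and Srebf1 -0.234 ± 0.835 in cohort 7 and 0.311 ± 0.872 in cohort 1 (difference -0.564 ± 0.271, limma adjusted p = 0.214). These were the members with an unadjusted p under 0.05, as 20.2% of all genes had. In cohort 2 against cohort 1, 0 members were called, where limma called 0.155% of all genes, and 0 had an unadjusted p under 0.05, where 16.3% of all genes had.

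Over kill day, a linear trend was called for 0 of 9 members (limma), where 3.49% of all genes were called, 1.13% with a rising and 2.36% with a falling slope. The steepest slope was that of Mlxipl, at -0.252 ± 0.0898 score units per 100 days (SE, unadjusted p 0.00499, limma adjusted p = 0.0910), and it was the 1 member under an unadjusted p of 0.05, where 15.6% of all genes were. With hybridization day, fluidic station and slot as covariates in place of batch, Mlxipl was called (slope -0.278, limma adjusted p = 0.0451). Adjusted p was 0.953 with the strain-number block added (slope -0.159), 0.394 without cohort 1 (slope -0.226) and 0.200 with kill cohort as a random block (slope -0.248). Slopes of the other 8 lay between -0.114 for Srebf1 and 0.161 for Thrsp.

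Cohort 8 was killed on 2 successive days, and the later day had lower means for 8 of the 9 members. Acly had lowest, median and highest scores of -2.49, 0.0566 and 1.39 in the 10 mice of the later day, against -1.31, 1.54 and 2.49 in the 12 mice of the earlier day. The difference was -1.25 ± 0.419 (SE, unadjusted p 0.00285, limma adjusted p = 0.862). Scd1 was the exception, with medians of 1.19 on the later day and 0.298 on the earlier day. By limma 0 members were called and 0% of all genes, while 3 members (Acly, Acaca and Mlxipl) had an unadjusted p under 0.05, as 5.21% of all genes had. Limma gave every member nearly the same SE, 0.418 to 0.419. For Acaca the SD was 1.11 on the later and 1.27 on the earlier day. The unadjusted p-values may thus be too small. This comparison of kill days was added after the mice at the top of the range had been seen.

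Outside the list, the genes most like the 9 members were taken by their mean r with them over the 157 mice. The highest were ENSMUSG00000041237, with a mean r of 0.506 (0.103 to 0.706), and ENSMUSG00000021957, with 0.494 (0.123 to 0.702). The lowest were ENSMUSG00000035247, with a mean r of -0.420 (-0.632 to -0.0639), and ENSMUSG00000027999, with -0.414 (-0.598 to 0.00638). For Fasn, Acaca, Acly, Elovl6 and Thrsp the closest of all genes was another member. For Srebf1, 1 gene outside the list was closer than Fasn, its closest member; for Scd1 there were 3 such genes, and for Mlxipl 21.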

How the data were processed

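Liver RNA of 157 mice, 1 array each, was hybridized to Affymetrix arrays after whole-transcript labelling. A custom chip definition gave 1 value per Ensembl gene (NCBI 37, Ensembl 49), per the series design text. The submitters' processing notes name RMA and affy without versions. Each deposited value is a score. Tested on the table, every one of 23176 genes held, within 0.0001, normal quantiles of the ranks of its arrays; the sources used here do not describe this step. Such ranks remove level and size of change, give nearly every gene the same distribution, and leave only the order of the mice.

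Models were fitted to the scores over the whole table with limma 3.58.1 in R 4.3.3 and adjusted by Benjamini-Hochberg over all genes (threshold 0.05). Cohort, trend, batch and cohort pairs used lmFit and eBayes with trend, with batch (or cohort, for the batch test) as a covariate; moderation there replaces nearly all of a gene's own spread by a shared value. Slopes on members used ordinary least squares from lmFit, with batch and cohort as covariates. Correlations, permutations (100000, two-sided) and figures used Python 3.11.15, numpy 2.4.6, scipy 1.17.1, pandas 2.3.3 and matplotlib 3.10.9. The trend over kill day, the slope on the score of a member, and the cohort and batch F tests were run on simulated data. The other models, among them the fit on Srebf1 and Mlxipl together and the pairs of cohorts, were not.

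Kill dates at most 3 days apart formed a cohort (18 dates, 10 cohorts). Batches follow the 8 numbers in the labels (the design text counts 6). Tests treat each mouse as independent, but those of a cohort share their kill days. The number of arrays limits the precision. Members, gene lists and tests were chosen with earlier results of these data known. All members found are named; of the genes outside the list, the rule took those with the highest and lowest mean r, and 2 identifiers of each are printed. The planned gene lists and cell type markers were not used, because the tables used here did not pair Ensembl identifiers with symbols. Alternatives covered covariates, normalization, moderation, outlying arrays and left-out cohorts or mice.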

Additional observations from a re-analysis of the deposited data

Results flagged for a closer look

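Scores of each member were searched for a mouse far from the rest of its cohort by Dixon's test, in 27 groups of 4 to 10 mice, and 2 mice of cohort 6 (10 mice) passed the critical value of 0.466. Chance gives about 1 in 20 groups. For Acly, replicate 1 of cohort 6 scored -1.58, with the nearest mouse at -0.306 and a gap over range of 0.533. This is the mouse of strain OR381, in which all 9 members were below 0. For Elovl6, replicate 5 of cohort 6 scored 1.14, with the nearest mouse at -0.290 and a gap over range of 0.526.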

How the results depend on the processing

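No paired analysis was possible because each mouse is its own strain and its number within a cohort is a name only. Of 106 settings of a count of called members or pairs, 101 stayed within 1.5 times the count reported. Where the reported count was 0, a setting was included among these if it also gave 0. This holds for the cohort, trend and batch tests, most pairs of cohorts, negative pairs and the fit on Mlxipl with Srebf1 held. The 101 thus include many counts that stayed 0 and do not measure how stable the calls were. Called pairs numbered 20 to 26 over all settings. There were 20 in cohorts 1 to 6 alone, 25 in cohorts 7 to 10 alone and 22 without cohort 8. With no covariates there were 24, with a block of strain numbers added 24, and with component 1 of all genes added 26. The share of all genes called positive moved as well. On Fasn it was 4.16% in the main fit, 0.531% in cohorts 1 to 6 alone and 2.3% in cohorts 7 to 10 alone. It was 4.7% with no covariates, 4.06% with the strain-number block and 4.51% with component 1 added. On Pnpla3 it was 19.9% in the main fit and 0.00863% with component 1 added. The share without cohort 8 is not given here. The count for the trend over kill day was 1 with hybridization day, station and slot in place of batch, against 0. The count on Mlxipl with Srebf1 held was 1 with the strain-number block (Acaca, slope 0.250, least squares adjusted p = 0.0408) and 1 without cohort 8. The count on Srebf1 with Mlxipl held was 2 in cohorts 1 to 6 alone (Fasn and Thrsp), against 5. Shares of all genes for the regulator fits in these settings are not given here. The count for cohort 8 against cohort 2 was 0 with the strain-number block, against 1. Other settings were leaving out each mouse of cohort 4 in turn, moderation, quantile normalization and leaving out the 2 arrays with the largest SD. They left the counts for the cohort, trend and batch tests at 0. Counts for pairs of members and for the regulators stayed within 1.5 times. For pairs of cohorts only moderation and the strain-number block were run, and moderation left those counts as reported.

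Slopes of Pnpla3 turned sign most often. In cohorts 1 to 6 alone they were -0.290 with Fasn, -0.321 with Acaca, -0.227 with Acly, -0.0996 with Scd1, -0.249 with Elovl6, -0.110 with Srebf1 and -0.0568 with Thrsp, and -0.0821 on Srebf1 with Mlxipl held. Without cohort 8 they were -0.162, -0.208, -0.105, -0.0896, -0.0764, -0.0178 and -0.0438 in the same order of members. With Mlxipl the slope was 0.107 with component 1 added and 0.0832 in cohorts 7 to 10 alone, and on Mlxipl with Srebf1 held it was 0.0114 with component 1 added. Component 1 also brought calls of Pnpla3 with Acaca (0.228, adjusted p = 0.0404), Elovl6 (0.238, adjusted p = 0.0277) and Srebf1 (0.216, adjusted p = 0.0311) by least squares. With component 1 added, 3.49% of all genes were called positive on Acaca, 3.26% on Elovl6 and 3.99% on Srebf1. In cohorts 7 to 10 alone Pnpla3 was called with Acly, Elovl6 and Srebf1. There 3.54%, 1.57% and 2.14% of all genes were called positive on these regressors in the same order. On Mlxipl with Srebf1 held, slopes turned to -0.0107 for Acly and -0.0190 for Thrsp with no covariates, and to -0.0209 for Acly, -0.0664 for Scd1 and -0.0730 for Thrsp in cohorts 7 to 10 alone. Trend slopes turned to -0.0920 for Acly, -0.0203 for Scd1 and -0.0333 for Thrsp with the strain-number block. In cohort 2 against cohort 1, differences with that block were -0.0269 for Acly, 0.0558 for Elovl6 and 0.00609 for Thrsp. None of these sign changes had been called; the cause was not tested. Leaving out cohort 8 in the fits of pairs of members and of the regulators, the late and early slope difference, the kill days of cohort 8 and the strain-number block in pairs of cohorts were chosen after seeing the data. The planned counts over gene lists were not run, since identifiers were not paired with symbols.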
